A study of Homo sapiens with 6 samples.

Results

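The 8 genes that encode the subunits of the CCT chaperonin were followed in hTERT RPE1 cells labelled as quiescent, with and without a drug that binds tubulin. They are TCP1, CCT2, CCT3, CCT4, CCT5, CCT6A, CCT7 and CCT8, chosen by name as the subunits of the complex. Each had 1 row among the 38900 Ensembl gene IDs of the table, and all 8 were abundant enough to be among the 13928 genes tested. The line, hTERT RPE1, was established from human retinal pigment epithelium and immortalised with telomerase. Every culture had spent 5 days at full confluency before fresh medium was given for 6 hours. That medium held 100 nM combretastatin A4 (CA4), a tubulin ligand that depolymerizes microtubules, in 3 libraries, and 0.1% DMSO, the solvent, in the other 3. The labels do not say whether the 3 libraries of a group came from separate cultures, so p-values measure the spread between these libraries, which may be technical.

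CCT, also called TRiC, is the chaperonin of the eukaryotic cytosol. It is a pair of stacked rings, each built from all of these related subunits, and it encloses an unfolded protein in its cavity and releases it after ATP hydrolysis. Actin and the alpha and beta tubulins depend on it to fold, and prefoldin hands these chains over to it. The comparison asks how far the transcripts of this folding machine differed between cells with and without the tubulin ligand. In bulk RNA, fewer cells with a transcript and less of it per cell cannot be told apart.

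The subunit genes lie on 7 chromosomes, with only CCT4 and CCT7 on the same one. In GENCODE 29 (GRCh38) TCP1 is at chr6:159778498-159789749 on the minus strand, CCT2 at chr12:69585334-69601570 on the plus strand and CCT3 at chr1:156308968-156367873 on the minus strand. CCT4 is at chr2:61868089-61888804 on the minus strand, CCT5 at chr5:10249921-10266412 on the plus strand and CCT6A at chr7:56051630-56063989 on the plus strand. CCT7 is at chr2:73233420-73253021 on the plus strand and CCT8 at chr21:29055805-29073797 on the minus strand. All are protein coding, and the values below count reads over their transcripts.

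Start sites from the RefSeq table used here (GRCh38.p14) were matched to 7 of the 8 genes, all but CCT6A. Within the 200 bases before it, 3 of the 7 (TCP1, CCT2 and CCT7) held the letters CGGAAGT on either strand, the core of the motif bound by ETS factors. Of 34780 RefSeq windows of that length, 5.2% held the same letters, as did 3 of the 9 windows of these 7 genes. The sites are shown because they are letters that several subunit genes have in common. Each is printed 5′ to 3′ on the strand that reads CGGAAGT, which is in capitals.
TCP1, 196 bases before the start, chr6:159789782-159789808, plus strand: aagcggagaaCGGAAGTcggatgttgg
TCP1, 113 bases before the start, chr6:159789699-159789725, plus strand: aggactgtgaCGGAAGTgaggctccgg
CCT2, 16 bases before the start, chr12:69585433-69585459, minus strand: tgaaggaagcCGGAAGTgacgccacac
CCT7, 63 bases before the start, chr2:73234235-73234261, plus strand: catagagtagCGGAAGTggtccgttct
The letters CCAAT were found in 4 of the 9 windows (of TCP1, CCT2, CCT3 and CCT8) and in 28% of all windows. The heat shock element core GAANNTTC was found in 1 of the 9, at a second start of CCT2, and in 4.51% of all windows. These are matches of letters and not measured binding. All of the windows overlap exons of their own gene in GENCODE 29, which has starts further upstream. The CCT2 and CCT7 sites and the TCP1 site nearer the start lie within those gene models.

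The libraries held 19524936 to 22538004 reads, recovered as whole numbers from the deposited values. Simple epithelial keratins and some pigment epithelial factors were present in all 6 libraries. KRT8 was at 14118 normalized counts or more, KRT18 at 8393 or more, OTX2 at 226 or more and MITF at 322 or more. Genes of the mature pigment epithelium were low, with BEST1 between 42.5 and 99.7, RPE65 between 13.5 and 40.8, RLBP1 and TYRP1 at 5.7 or less, TYR at 2.9 or less and DCT listed at 0 throughout. The 10 markers of other cell types summed to 1054 to 1485 in DMSO and 1386 to 3316 in CA4. CA4 replicate 3 had the highest sum, carried by the endothelial genes VWF at 1732, PECAM1 at 916 and CDH5 at 576. These endothelial genes were present in every library, with VWF at 509 or more, PECAM1 at 284 or more and CDH5 at 151 or more. SNAP25 was between 29 and 101. EPCAM was at 4.46 or less and MYOD1 at 2.24 or less in every library. Of the 9 tested genes of the pigment epithelial and epithelial list, 1 was lower and 1 higher past the limma threshold given below, against 1.97% and 2.97% of all genes. OTX2 was lower in CA4, with a log2 fold change of -1.11 (limma adjusted p = 0.0158), and the cadherin gene CDH2 higher, with 0.31 (limma adjusted p = 0.0452). In edgeR OTX2 was the only gene of the list called, while DESeq2 called OTX2 and MITF lower and CDH2 and KRT18 higher. Over all genes edgeR called 4.62% and DESeq2 called 11.6% (6.51% higher). The part of these marker genes in the results was not tested.

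DMSO replicate 1 stood apart from the other DMSO libraries in these genes. It had the highest value of the 3 for all 8 subunits, so the fold change of each subunit is also given without it. Leaving out the highest DMSO library had to raise each fold change, so the range with any 1 library left out is given too. DMSO replicate 1 also had the highest sum of 6 cycling cell markers (MKI67, TOP2A, CCNB1, CCNA2, BUB1 and AURKA), 10676 normalized counts against 5127 and 4688 in DMSO replicates 2 and 3. The CA4 sums were 8570, 4954 and 2759 in replicates 1, 2 and 3. MKI67, a marker of cycling cells, was at 1191 to 4849 in all 6 libraries. None of the 6 markers passed the limma threshold (0 at an unadjusted p under 0.05, and 0 called in edgeR or DESeq2). With the replicate number as a block, 2 of them, TOP2A and CCNB1, were called lower in CA4, as were 8.16% of all genes in that fit. The part of cycling cells in the results was not tested.

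None of the 8 subunit genes passed the threshold between CA4 and DMSO (limma's moderated test on log2(normalized count + 1), Benjamini-Hochberg adjusted p under 0.05 over all 13928 genes). The background share past that threshold was 4.94%, with 413 genes higher and 275 lower. Under scaling to the same total, which moved the median of all genes to -0.11, 279 of 802 called genes were higher. The unadjusted p was under 0.05 for 1 of 8 subunits, TCP1, against 23% of all genes. The count was also 0 in edgeR, which called 4.62% of all genes, and in DESeq2, which called 11.6% of all genes (6.51% higher), both on the recovered reads. It was 2 in the limma fit with the replicate number as a block, which called 9.05% of all genes higher. All 8 fold changes were above 0, from 0.05 to 0.29 on the log2 scale, against 48.9% of all genes. The 2 smallest, CCT6A and CCT7, turned negative under quantile normalization and under scaling to the same total. The median of the 8 was 0.18, that of all tested genes -0.01.

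TCP1, the founding subunit after which the family is named, was the only member whose groups did not overlap. Its normalized counts were 3936, 3428 and 3729 with DMSO (here and below in the order of replicates 1, 2 and 3), and with CA4 they were 4411, 4171 and 4726. Every CA4 library lay above every DMSO library, as in 14.3% of all tested genes. No subunit had all CA4 libraries below DMSO, an order found in 13.4% of all tested genes. The mean went from 3698 ± 255 to 4436 ± 278 (SD, n = 3 each), 1.2 times as high. Its log2 fold change of 0.26 had a standard error of 0.09 and a 95% interval of 0.06 to 0.46, before any adjustment for many genes. The limma adjusted p was 0.124, and without DMSO replicate 1 the log2 fold change was 0.31 with a limma adjusted p of 0.0926. With any 1 library left out the log2 fold change lay between 0.21 and 0.31.

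CCT5 had the highest fold change and also the widest spread. Variants in this subunit gene are known from hereditary sensory neuropathy. It had 4137, 2948 and 2822 normalized counts in DMSO and 4630, 3478 and 3901 in CA4 replicates 1, 2 and 3. DMSO replicate 1 lay above 2 of the 3 CA4 libraries, so the groups overlapped. The log2 fold change was 0.29 (SE 0.17, 95% interval -0.10 to 0.68, limma adjusted p = 0.353). Without DMSO replicate 1 it was 0.46, with a limma adjusted p of 0.0804. It lay between 0.18 and 0.46 with any 1 library left out.

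CCT2, a subunit gene with variants linked to Leber congenital amaurosis, a retinal dystrophy, followed the same order of libraries. It had 3854, 2695 and 2646 normalized counts in DMSO and 3906, 3167 and 3562 in CA4. Again only DMSO replicate 1 reached the CA4 values. The log2 fold change was 0.23 (SE 0.16, 95% interval -0.14 to 0.59, limma adjusted p = 0.44), and 0.40 without DMSO replicate 1 (limma adjusted p = 0.0716). It lay between 0.13 and 0.40 with any 1 library left out.

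CCT3, CCT4 and CCT8 lay between these and the lowest members. CCT3 had 4227, 3517 and 3232 normalized counts in DMSO and 4415, 3935 and 4045 in CA4. CCT8 had 3089, 2408 and 2518 in DMSO and 3105, 2868 and 3005 in CA4. In both genes DMSO replicates 2 and 3 lay below all CA4 libraries and DMSO replicate 1 lay within their range. Their log2 fold changes were 0.18 and 0.17 (SE 0.11 for both, limma adjusted p = 0.38 and 0.391), and 0.29 and 0.28 without DMSO replicate 1 (limma adjusted p = 0.104 and 0.0927). With any 1 library left out they ran from 0.10 to 0.29 and from 0.10 to 0.28. CCT4, which like CCT5 can form rings of a single subunit when purified alone, had 3580, 2887 and 2716 in DMSO and 3557, 3155 and 3330 in CA4. Its DMSO replicate 1 was the highest of all 6 libraries, and the log2 fold change was 0.14 (SE 0.12, limma adjusted p = 0.528). It was 0.26 without that library (limma adjusted p = 0.135) and lay between 0.06 and 0.26 with any 1 library left out.

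CCT6A and CCT7 had the smallest differences. CCT6A, the broadly expressed member of a pair whose other gene, CCT6B, is known from testis, had 5261, 4527 and 4881 normalized counts in DMSO and 5224, 4863 and 5196 in CA4. CCT7 had 5231, 4307 and 4311 in DMSO, and 4862, 4507 and 4930 were its CA4 counts. The highest library of both genes was DMSO replicate 1. The log2 fold changes were 0.06 (95% interval -0.13 to 0.25, limma adjusted p = 0.709) and 0.05 (95% interval -0.18 to 0.28, limma adjusted p = 0.804). Without DMSO replicate 1 they were 0.12 and 0.14 (limma adjusted p = 0.425 and 0.31). With any 1 library left out they ran from 0.01 to 0.12 and from 0.00 to 0.14. Over the 8 genes with all libraries the highest upper bound of an interval was the 0.68 of CCT5 and the lowest lower bound the -0.18 of CCT7. A p above the threshold does not show that a gene stayed the same, and these bounds give the sizes the libraries allow.

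**Figure D1:**
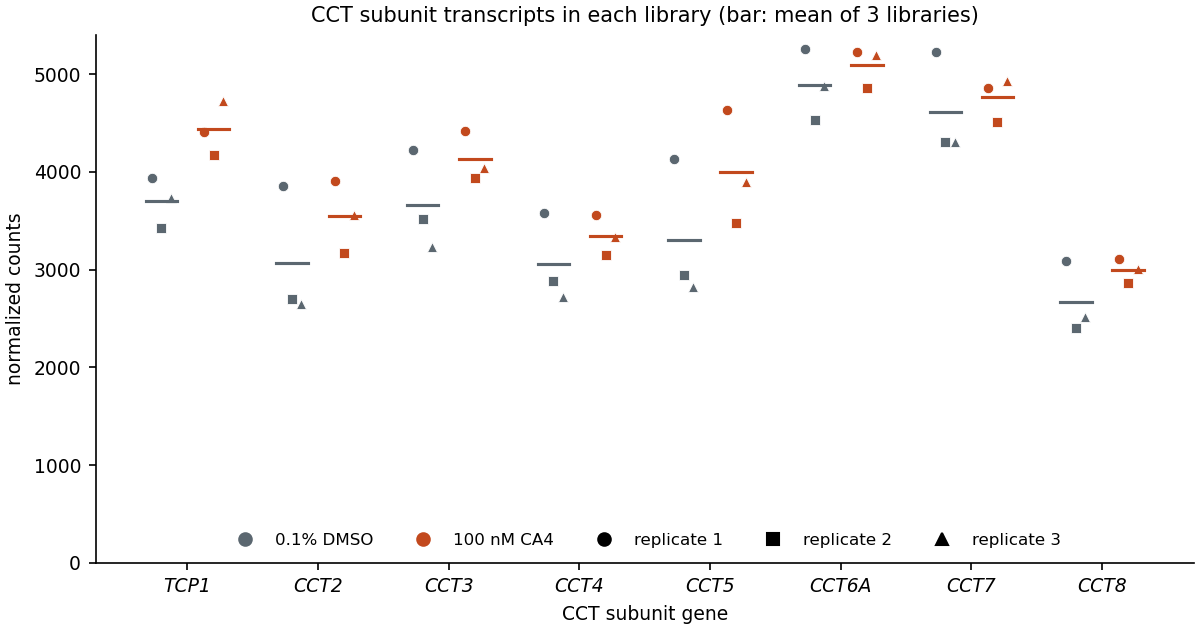
Normalized counts (vertical axis) of the 8 CCT subunit genes (horizontal axis) in each of the 3 DMSO and 3 CA4 libraries, with marker shapes for the replicate numbers and a bar at each group's mean. The CA4 points of TCP1 lie at 4171 to 4726, all above its DMSO points at 3428 to 3936, while in each of the other 7 genes DMSO replicate 1 lies above at least 1 CA4 point.

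Removing the 1 library that stood apart changed how the groups lay. Without DMSO replicate 1, the 3 CA4 libraries were above both remaining DMSO libraries in 7 of the 8 subunits, all but CCT6A. The share of all genes was 22.7%, but that library was singled out as the highest of the DMSO libraries in these same genes, so leaving it out had to widen the difference and nothing is read from the count. The median log2 fold change was then 0.29. Still 0 of 8 passed the limma threshold, with adjusted p-values from 0.0716 to 0.425, in a fit that called 7.09% of all genes. Leaving out any 1 of the other 5 libraries gave a median between 0.11 and 0.21 and left TCP1 as the 1 subunit with no overlap. The lowest of these medians were 0.12 and 0.11, reached when DMSO replicate 2 or 3 was left out.

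The 8 genes varied together across the 6 libraries. Pearson correlations of their log2 values over the 28 pairs ran from 0.60 for TCP1 with CCT7 to 0.99 for CCT2 with CCT4 and with CCT5, with a median of 0.89 (n = 6 libraries, which share their depth and scaling). Without DMSO replicate 1 the median was 0.92 over 5 libraries, and the pair of TCP1 and CCT7 then reached 0.94. Within DMSO, replicate 1 was the highest in all 8 genes. Within CA4, replicate 2 was the lowest in all 8 and replicate 1 the highest in 6, while TCP1 and CCT7 were highest in replicate 3. Neither these orders nor the correlations were set against all tested genes, so they are not read as particular to the subunits. The standardized mean of the 8 genes was 0.80, -1.17 and -1.07 in DMSO and 0.92, -0.10 and 0.62 in CA4, so DMSO replicate 1 lay among the CA4 libraries.

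**Figure D2:**
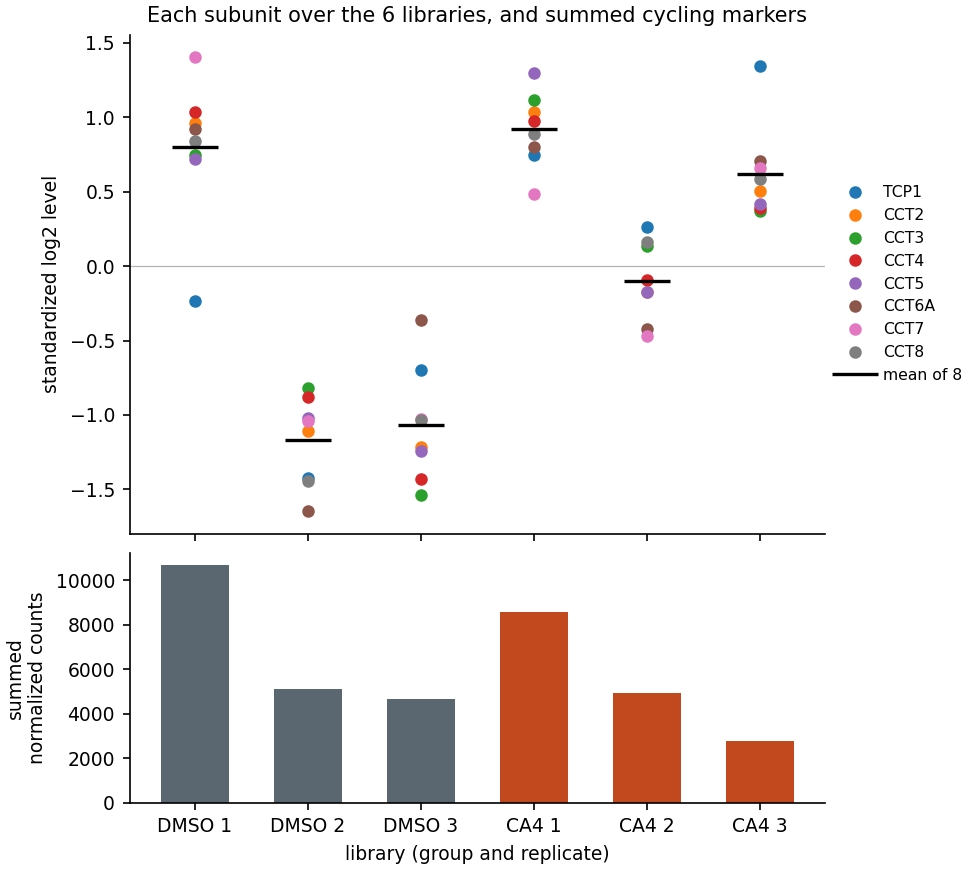
Upper panel: log2 level of each subunit in each library, standardized over the 6 libraries (vertical axis, in standard deviations), with a bar at the mean of the 8 genes; lower panel: summed normalized counts of 6 cycling cell markers in the same libraries. The subunit mean is at 0.80 in DMSO replicate 1 and at -1.17 and -1.07 in the other DMSO libraries, while the cycling sum runs from 10676 in DMSO replicate 1 down to 2759 in CA4 replicate 3.

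The 5 other tested genes with the most similar course over the 6 libraries were NUDC, SRSF2, WDR4, NSFL1C and WDR77. Their Pearson correlations with the standardized mean of the subunits were 0.999, 0.997, 0.994, 0.993 and 0.992 (n = 6 libraries), chosen as the highest of all tested genes. NUDC, a regulator of the dynein motor, had 2285, 1732 and 1733 normalized counts in DMSO and 2303, 1987 and 2212 in CA4. Like the subunits it was high in DMSO replicate 1 and low in the other DMSO libraries, and its log2 fold change was 0.19 (limma adjusted p = 0.432). SRSF2 is a splicing factor, WDR4 belongs to a tRNA methyltransferase, NSFL1C is a cofactor of the p97 ATPase and WDR77 a subunit of the methylosome. None of these 4 passed the threshold.

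Per kilobase of the principal transcript, CCT7 had the highest level and CCT5 the lowest. In DMSO, CCT7 was at 2409 ± 278 normalized counts per kilobase and CCT5 at 899 ± 198 (SD, n = 3 each). Between them came CCT6A at 1798 ± 135, CCT3 at 1702 ± 238, CCT2 at 1502 ± 335, TCP1 at 1480 ± 102, CCT8 at 1333 ± 182 and CCT4 at 1215 ± 182. The step from CCT7 to CCT6A was the only one between neighbours whose library ranges did not overlap. The order depends on the length used. Per kilobase of all merged exons CCT7, CCT6A and CCT5 kept their places at 1286, 1253 and 566, while CCT4 moved up to follow CCT6A at 1082.

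The share of each gene in the summed counts of the 8 does not depend on how the libraries were scaled. CCT7 took 15.7%, 16.1% and 16.1% of the sum in DMSO, while its CA4 shares were 14.3%, 15% and 15.1%. All CA4 shares lay below all DMSO shares, with means of 16% ± 0.225 and 14.8% ± 0.443 (SD, n = 3 each). The two-sided exact permutation p was 0.1, the smallest that 3 against 3 libraries allow, and 0.6 after adjustment over the 8 shares. The difference was -1.2 percentage points with all libraries and lay between -1.35 and -0.943 with any 1 left out. The shares of the other 7 genes overlapped between groups, with exact permutation p-values from 0.3 to 0.8. TCP1 averaged 12.8% in DMSO and 13.7% in CA4, CCT5 11.3% and 12.3%, and CCT6A 17% and 15.8%. With any 1 library left out their differences ran from 0.382 to 1.42, from 0.415 to 1.58 and from -1.78 to -0.587 percentage points. CCT8 stayed between 9.01% and 9.51% in all 6 libraries. Shares of 1 sum are tied to each other, so a lower share of CCT7 implies a higher share elsewhere.

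The actin and tubulin clients were then set beside the chaperonin. The 8 subunits summed to 33314, 26718 and 26856 normalized counts in DMSO and 34110, 30144 and 32695 in CA4, a log2 difference of 0.16 (two-sided exact permutation p = 0.3). The 17 alpha and beta tubulin genes summed to 75929 ± 15793 normalized counts with DMSO but to 21799 ± 1890 with CA4 (SD, n = 3 each). The two-sided exact permutation p was 0.1, the smallest possible. In limma's test 9 of the 11 tested tubulins were lower in CA4 past the adjusted threshold, where the background share of lower genes was 1.97%. The actin list had 2 of 5 tested genes higher past it, ACTG1 with a log2 fold change of 0.43 (limma adjusted p = 0.0365) and ACTG2, a smooth muscle actin, with 1.04 (limma adjusted p = 0.0336). The background share of higher genes was 2.97%. ACTG1 lost its call in 9 of 18 alternatives and ACTG2 in 5. ACTG1 is a main cytoplasmic actin, and the other, ACTB, had a log2 fold change of 0.32 (limma adjusted p = 0.0859). In edgeR and in DESeq2 ACTB was called higher as well, which made 3 of 5. For all genes the edgeR share was 4.62% in both directions together, and the DESeq2 share of higher genes was 6.51%.

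Set against the chaperonin in the same library, the tubulin sum was 2.82, 2.44 and 2.56 times the CCT sum in DMSO and 0.686, 0.74 and 0.603 times in CA4. The mean ratio was 2.61 ± 0.198 in DMSO against 0.676 ± 0.069 in CA4 (SD, n = 3 each). On the log2 scale the difference was -1.95, with no overlap (two-sided exact permutation p = 0.1, the smallest possible). These are ratios of reads and not per length, so only their change between groups is read. It lay between -2.02 and -1.87 with any 1 library left out. The sum of ACTB and ACTG1 was 9.16, 10.7 and 10.8 times the CCT sum in DMSO and 10.9, 12.9 and 11.5 times in CA4. That log2 difference of 0.20 also had no overlap (two-sided exact permutation p = 0.1), with 10.8 and 10.9 as the nearest values. It lay between 0.13 and 0.26 with any 1 library left out.

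**Figure D3:**
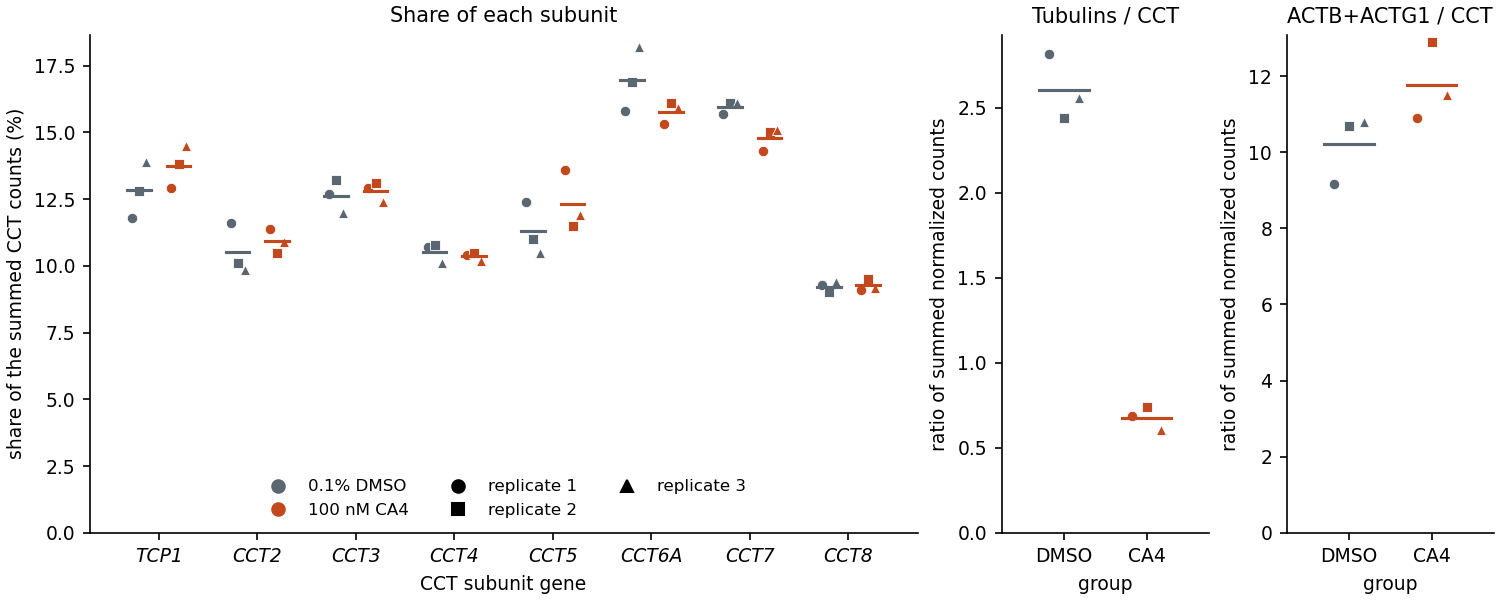
Left: share of each subunit gene in the summed counts of the 8 (percent) in each library; right: ratio of the summed tubulin counts, and of ACTB plus ACTG1, to the CCT sum; points are libraries, shapes replicate numbers and bars group means. The mean share of CCT7 is 16% in DMSO and 14.8% in CA4 with no overlap of the libraries, and the mean tubulin ratio is 2.61 and 0.676.

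The proteins that work with CCT were read from 6 lists with 54 genes, 51 of them tested. Past the threshold was 1 gene, the client SPHK1, against a background of 4.94%. Of the 51, BBS10 was listed at 0 in all DMSO libraries and passed the filter on low values only through CA4. Among the other 50, an unadjusted limma p under 0.05 was found for 13, against 23% of all genes, and a log2 fold change above 0 for 26. DESeq2 on the recovered reads called 5 of the 51, where it called 11.6% of all genes. The limma fit without DMSO replicate 1 also called 5, where it called 7.09% of all genes. In both fits these were SPHK1, HSPE1, BBS12, HSPB1 and HSP90AA1. It was 0 without DMSO replicate 2, without DMSO replicate 3 or without CA4 replicate 1.

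Prefoldin, which delivers actin and tubulin chains to CCT, had 0 of 6 subunits past the threshold in limma, in edgeR and in DESeq2, which called 4.94%, 4.62% and 11.6% of all genes. At an unadjusted limma p under 0.05 there was 1 of 6, against 23% of all genes. PFDN2 had 606, 517 and 552 normalized counts in DMSO and 787, 652 and 701 in CA4, all CA4 libraries above DMSO (log2 fold change 0.35, SE 0.11, limma adjusted p = 0.123). PFDN1 lay the other way, with 915, 811 and 827 in DMSO and 720, 790 and 778 in CA4 (log2 fold change -0.16, SE 0.10, limma adjusted p = 0.38). PFDN6 was at 0.18 (limma adjusted p = 0.51). The median of the 6 was -0.01, that of all tested genes. Whether prefoldin and CCT differed was not tested.

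Of the phosducin-like partners, which bind CCT and modulate its work on actin, tubulin and G protein beta subunits, 0 of 3 tested genes passed in limma, edgeR or DESeq2, and 1 of 3 had an unadjusted limma p under 0.05, again against 23% of all genes. TXNDC9 had 533, 463 and 491 normalized counts in DMSO and 569, 612 and 597 in CA4 with no overlap (log2 fold change 0.26, SE 0.10, limma adjusted p = 0.187). PDCL and PDCL3 had log2 fold changes of -0.19 and -0.07, and PDCL2 was listed at 0 in every library. Of the prefoldin-like and R2TP proteins, an assembly line for large complexes, 0 of 7 passed in any of the 3 tools and 0 of 7 had an unadjusted limma p under 0.05, against the same 23%. RUVBL1, RUVBL2 and UXT were at log2 fold changes of 0.19, 0.13 and 0.17.

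**Figure D4:**
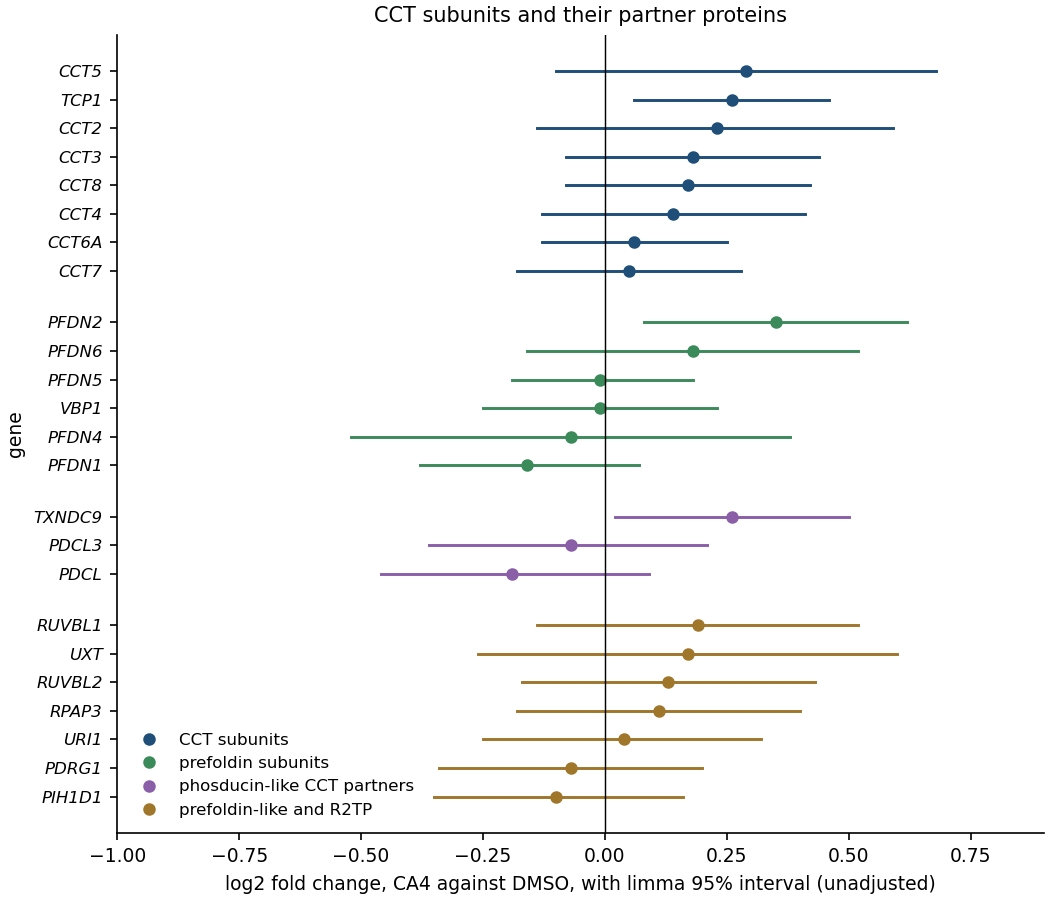
Log2 fold change of CA4 against DMSO (horizontal axis) with limma's unadjusted 95% interval for the 8 CCT subunits, 6 prefoldin subunits, 3 phosducin-like partners and 7 prefoldin-like and R2TP genes. All 8 CCT points lie at 0.05 to 0.29 and none of the 24 genes passed the adjusted threshold in limma with treatment as the only term.

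Relatives of CCT outside the complex went in both directions, with 0 of 6 tested genes past the threshold in limma and in edgeR. Leaving out BBS10, 3 of 5 had an unadjusted limma p under 0.05, against 23% of all genes. DESeq2 called HSPE1 higher and BBS12 lower, in a fit that called 11.6% of all genes. In limma both passed without DMSO replicate 1 (adjusted p = 0.0471 and 0.0475), their highest and lowest DMSO library, and neither with any of the other 5 libraries left out (adjusted p from 0.0871 to 0.233 and from 0.0698 to 0.202). Under scaling to the same total, a fit that called 802 genes, BBS12 passed (limma adjusted p = 0.0464). With the replicate number as a block, limma called HSPE1 and HSPD1 higher and BBS12 lower. That fit called 9.05% of all genes higher and 8.16% lower. HSPE1, the lid of the mitochondrial chaperonin, had 908, 778 and 741 normalized counts in DMSO and 1120, 973 and 1140 in CA4 (log2 fold change 0.42, SE 0.11, limma adjusted p = 0.0829). BBS12, a chaperonin-like protein that works with CCT in assembling the BBSome of cilia, lay lower, with 179, 242 and 263 in DMSO and 83.1, 141 and 125 in CA4 (log2 fold change -0.98, SE 0.25, limma adjusted p = 0.0658). The groups did not overlap in either gene. BBS10, of the same group, was listed at 0 in the 3 DMSO libraries and CA4 replicate 3 and at 95.7 and 159 in CA4 replicates 1 and 2, so no fold is given. CCT6B, the testis relative of CCT6A, was at 21.5 to 52.2 in all libraries.

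Among 18 other reported clients, 1 passed in limma, a share near the 4.94% of all genes. SPHK1, a sphingosine kinase, had 2128, 992 and 1032 normalized counts in DMSO and 5997, 3556 and 5393 in CA4. It rose by 1.91 on the log2 scale (SE 0.32, limma adjusted p = 0.0213), with all CA4 libraries above DMSO. Without DMSO replicate 2, DMSO replicate 3, CA4 replicate 1 or CA4 replicate 3 the log2 fold change of SPHK1 was 1.71, 1.74, 1.76 or 1.83 and the call was lost (limma adjusted p = 0.0758 to 0.09). It was also lost without the variance trend (limma adjusted p = 0.0722). Heat shock factors and cytosolic heat shock chaperones had 0 of 11 past the threshold in limma and in edgeR, 4 of 11 at an unadjusted limma p under 0.05 (23% of all genes) and a median log2 fold change of 0.24. The limma fit with the replicate number as a block called HSPB1, HSP90AA1 and HSPH1 higher, among 9.05% of all genes. DESeq2 called HSPB1 and HSP90AA1 higher, among 6.51% of all genes. In limma both passed without DMSO replicate 1, their highest DMSO library (log2 fold changes 0.40 and 0.71, adjusted p = 0.0435 and 0.0201), and neither with any of the other 5 libraries left out (adjusted p from 0.13 to 0.2 and from 0.154 to 0.322). With all libraries HSPB1 had a log2 fold change of 0.34 (limma adjusted p = 0.0677), HSP90AA1 of 0.52 (limma adjusted p = 0.126) and HSF2 of -0.49 (limma adjusted p = 0.127). HSP90AA1 had 23596 normalized counts in DMSO replicate 1 against 16359 and 15289 in the other DMSO libraries, so replicate 1 was the highest of the 3, as in the subunits.

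Several subunit genes start close to a gene on the opposite strand. The partner of TCP1, the mitochondrial ribosomal protein gene MRPL18, starts 63 bases away and had 658, 597 and 593 normalized counts in DMSO and 726, 699 and 703 in CA4. Like TCP1 it had no overlap between groups (log2 fold change 0.20, SE 0.09, limma adjusted p = 0.246). PRADC1, 182 bases from the start of CCT7, lay the other way, with 244, 223 and 217 in DMSO and 173, 168 and 175 in CA4 (log2 fold change -0.40, SE 0.13, limma adjusted p = 0.122). PSPH, a serine synthesis enzyme 26 bases from CCT6A, was at -0.52 with overlapping groups (limma adjusted p = 0.236). COMMD1 near CCT4 was at -0.08, and ATPSCKMT near CCT5 had a sign that changed with the setting. TSACC near CCT3 was below the filter, at 8.98 normalized counts or less.

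Copies of these genes elsewhere in the genome share few of their words, as far as the annotation shows. CCT8 shared 4.64% of its 50-base words with the processed copy CCT8P1, CCT6A 3.52% with CCT6P3 and TCP1 2.02% with TCP1P1, the highest share of each with any other annotated gene. Of the 15 rows for such copies, 2 passed the filter on low values. The row ENSG00000290860, also named CCT6P3 but under an ID other than the one compared by words, had 105, 106 and 121 normalized counts in DMSO and 133, 145 and 155 in CA4 (log2 fold change 0.38, SE 0.16, limma adjusted p = 0.209). CCT6P1 had 12.6, 4.67 and 0.95 in DMSO and 13.5, 26.9 and 14.5 in CA4 (limma adjusted p = 0.216). Reads could have been split between these copies and CCT6A. Overlap with exons on the opposite strand is wider. An antisense RNA, AC012640.4, shares 30.1% of the merged exon bases of CCT5, and ACAT2, a sterol pathway enzyme, 8.05% of those of TCP1. Use of strand in counting was not given in the sources used here. ACAT2 lay opposite to TCP1, with 936, 557 and 1039 in DMSO and 435, 367 and 207 in CA4 (log2 fold change -1.34, limma adjusted p = 0.0576).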

How the data were processed

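PolyA RNA of 3 DMSO and 3 CA4 libraries was analysed, grouped by title. The deposited table holds a signal that the authors made by dividing each gene's reads by a library factor (called normalized counts here). Per the submitters' processing notes, Trim Galore 0.6.6, FastQC 0.12.1, STAR 2.7.9a, Salmon 1.8.0, DESeq2 1.44.0 and GRCh38 were used, with no role or order given. The annotation release is not given in the sources used here. In every column, dividing by 1 fixed step made 100% of the values whole (tolerance 0.01), which gave the reads, possibly rounded estimates. A value of 0 allows up to 3 reads, for counting error only, since no molecular identifiers were used. Symbols were found for 35803 of 38900 IDs. Where a symbol had several IDs, the one with the most reads was used.

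Genes averaging 10 or more normalized counts over the 6 libraries were tested with limma 3.58.1 in R 4.3.3 on log2(normalized count + 1), with treatment as the only term, a variance trend, two-sided p-values, Benjamini-Hochberg adjustment over all 13928 genes and a threshold of 0.05. The count of 1 added before taking log2 understates fold changes of low genes. Alternatives included edgeR 4.0.16, which called 643 genes, and DESeq2 1.42.0 on the recovered reads. Named genes are the 8 subunits, up to 5 called members of each other list or the 3 with the smallest p where none was called, neighbours starting within 1000 bases on the opposite strand, copies past the filter, and the 5 most similar genes; other names were chosen after their values were seen. Members and lists were chosen with earlier results of these data known. Gene models came from GENCODE 29 and start sites from RefSeq.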

Additional observations from a re-analysis of the deposited data

How the results depend on the processing

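The count of 0 CCT subunits past the threshold held in 17 of 18 alternatives. The exception was the fit with the replicate number as a block, with 2 subunits, TCP1 (limma adjusted p = 0.034) and CCT5 (limma adjusted p = 0.0465), against a background of 9.05% called higher in that fit. The block also gave 8 pathway genes against 1, PFDN2 among them (limma adjusted p = 0.0335), and 2397 genes in all against 688. Same-numbered libraries deviated from their group means with correlations of 0.202, 0.159 and 0.059. The labels name no shared culture or day, so whether same-numbered libraries were paired is not known. Every library but CA4 replicate 3 correlated best with its own number. The median of the 8 subunits ran from 0.08 under scaling to the same total to 0.29 without DMSO replicate 1. Scaling to the same total moved the median of all genes to -0.11, and the subunit median relative to it was 0.18, against 0.19 in the original fit and 0.09 under quantile normalization. CCT6A and CCT7 were at -0.04 and -0.05 under scaling to the same total and at -0.02 and -0.03 under quantile normalization, and SRSF2 at -0.02 and -0.03. ATPSCKMT, at -0.00 with all settings as given, was at 0.08 under quantile normalization, 0.03 in edgeR and 0.02 in DESeq2. With a library left out, 4 genes turned sign: ATPSCKMT (-0.11 to 0.19, above 0 without DMSO replicate 1 or CA4 replicate 3), PDCL3 (-0.14 to 0.03, above 0 without DMSO replicate 1), UXT (-0.02 to 0.27, below 0 without DMSO replicate 2) and COMMD1 (-0.18 to 0.05, above 0 without CA4 replicate 1). The cause was not tested.

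Pathway genes past the threshold numbered 2 under scaling to the same total, 0 without the variance trend, 5 in DESeq2 and 0 to 5 with a library left out. All genes past it numbered 103 without the variance trend, 1613 in DESeq2 and 84 to 990 with a library left out: 84 without DMSO replicate 3, 107 without DMSO replicate 2, 150 without CA4 replicate 3 and 156 without CA4 replicate 1. The CCT subunit count was 0 in each of these 6 fits. The number of libraries, 3 a group, limits what differences could be called.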
